A study of Mus musculus with 6 samples.

Results

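Cyclic nucleotide phosphodiesterases are the enzymes that break down cAMP and cGMP. The genes described here are 10 members of that family, Pde1a, Pde1c, Pde2a, Pde3a, Pde3b, Pde4a, Pde4b, Pde4d, Pde5a and Pde8a, out of 24 genes named Pde1 to Pde11 and 55055 genes in the deposited table. They were taken by gene symbol, and the list was drawn up with the wild-type and knockout values of these libraries in view, so their genotype differences are given as a description. Where counts of these genes past a threshold of the fit over all genes are given, they describe the values that chose the genes and are no evidence of a difference. RNA-seq libraries of polyadenylated RNA came from myometrium, the muscular layer of the uterus, of pregnant mice, staged E19.5 in the sample labels and gestational day 19 in the series design. The 2 groups were 3 wild-type animals (TCF23 WT) and 3 animals in which Tcf23, a basic helix-loop-helix gene, was knocked out with CRISPR/Cas9 (TCF23 KO), with 1 library per animal. Neither the strain nor the age of the animals is stated in the labels, nor which bases of Tcf23 were deleted.

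In smooth muscle, cAMP and cGMP act through protein kinases A and G and lower the force of contraction, and phosphodiesterases end that signal. Families 4, 7 and 8 act on cAMP, families 5, 6 and 9 on cGMP, and families 1, 2, 3, 10 and 11 on both. The families also differ in what controls them: calcium and calmodulin switch on family 1, cGMP stimulates family 2 and slows family 3, and protein kinase A activates the long forms of family 4. Inhibitors of families 3, 4 and 5 relax smooth muscle.

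Total counts ran from 39939686 to 65036402 per library, and Tcf23 had 3360 to 5970 counts in wild-type and 0 to 2 in knockout libraries, which matched the labels. Summed CPM (counts per 1000000 of the scaled library total) of 10 smooth muscle markers were 33020, 32430 and 27800 in wild-type replicates 1, 2 and 3 and 35240, 40430 and 15880 in knockout replicates 1, 2 and 3, so all libraries carried the labelled tissue, and 9 of the 10 markers were lowest in knockout replicate 3. Endothelial markers followed a like order in knockout, at 665, 915 and 475 CPM against 640 to 779 in wild-type, with 6 of 10 lowest in knockout replicate 3. The sums of trophoblast and fetal membrane markers were 291, 9.41 and 0.512 CPM for knockout replicates 1, 2 and 3, and wild-type libraries lay between 23.9 and 38.1. All 10 leukocyte markers had positive fold changes, with sums of 427 to 590 CPM in wild-type and 525 to 619 in knockout. Uterine epithelial markers summed to 2941, 2361 and 4527 CPM in wild-type and 3553, 1458 and 5530 in knockout, lowest in knockout replicate 2 and highest in knockout replicate 3, the reverse of the smooth muscle sums. Mesothelial sums ran the same way in knockout, at 619, 281 and 930 CPM against 451 to 857 in wild-type. Krt19 is in both the epithelial and the mesothelial list. Of 10 mesothelial markers, 8 had negative fold changes and 2 were lowest in knockout replicate 3, so the sum does not stand for each marker. Fibroblast markers were highest in wild-type replicate 2, at 30330 CPM against 18350 to 24460 in the other libraries. In whole tissue, fewer cells of a type and less RNA per cell cannot be told apart, and the part of tissue content in the values below was not tested.

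All 10 genes had enough counts for the fit across 19599 genes. Pde3a, Pde4b and Pde4d were lower in every knockout library than in every wild-type library, Pde4a was higher in every knockout library, and the other 6 overlapped. The knockout mean was 61.2% of the wild-type mean for Pde3a, 63.2% for Pde4d, 69% for Pde4b and 133% for Pde4a. Groups failed to overlap in the lower direction for 3 of the 10 genes, against 7.01% of all genes tested, and in the higher direction for 1, against 7.22%; since the values of these libraries chose the genes, nothing is read from those shares. Log2 changes were negative for 8 of the 10, with a median of −0.21, where 47.9% of all genes were negative and the median was 0.01. Of the 10, edgeR's quasi-likelihood test put 0 past an adjusted p of 0.05 over all genes (0.0204% of all genes were past it and lower, 0% past it and higher), and DESeq2 put Pde4d past it (0.72% of all genes lower, 2.01% in either direction). Nothing is read from these counts either. Without knockout replicate 2 the genes with all knockout libraries lower numbered 7, and without wild-type replicate 1 or wild-type replicate 3 they numbered 4. Without knockout replicate 3 the negative genes numbered 6, and Pde1c joined Pde4a as higher in each remaining knockout library. The shares of all genes without overlap were not computed with a library left out. Groups separate more easily with fewer libraries, so nothing is read from these counts.

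**Figure D1:**
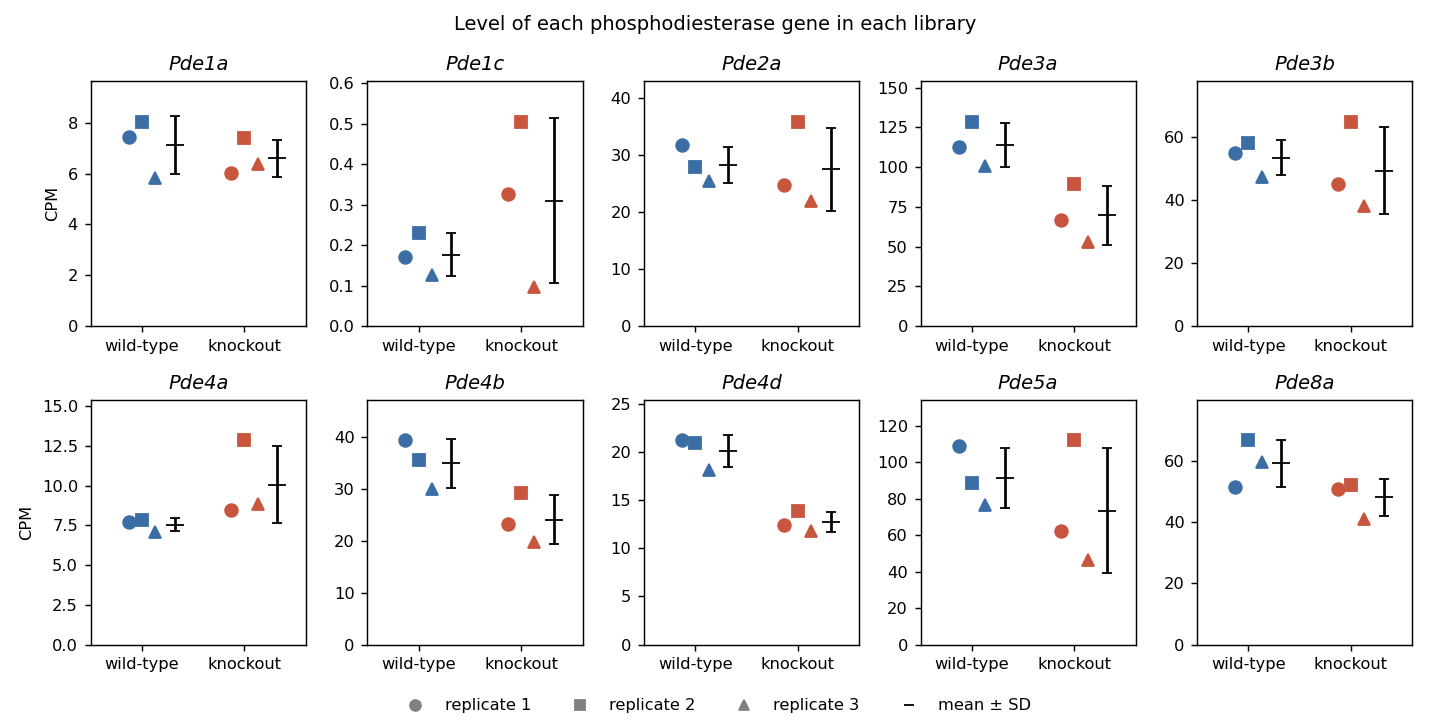
CPM of the 10 phosphodiesterase genes in each library (y axis from 0, a separate scale per gene), with circles, squares and triangles for replicates 1, 2 and 3 and black bars for the mean ± SD of 3 libraries. Pde3a, Pde4b and Pde4d have all 3 knockout libraries below all wild-type ones, Pde4a has them above, and knockout replicate 2 is the highest knockout library for each gene.

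The subfamily 4 genes encode the main cAMP-specific phosphodiesterases. Pde4d (ENSMUSG00000021699, mm10 chromosome 13, 108654177 to 109953461, plus strand) had 21.2, 20.9 and 18.1 CPM in wild-type replicates 1, 2 and 3 and 12.4, 13.85 and 11.8 in knockout replicates 1, 2 and 3. The 2 groups lay well apart, the highest knockout value being below the lowest wild-type one, and each group varied little, with a coefficient of variation of 8.38% in wild-type and 8.33% in knockout. The log2 change was −0.66 ± 0.14 (SE), and between −0.73 and −0.61 with any 1 library left out. Within knockout the order of the 3 Pde4d values was that of the smooth muscle marker sums, as it was for most of the 10 genes. Knockout replicates 1 and 2 had larger marker sums (35240 and 40430 CPM) than any wild-type library (at most 33020), and lower Pde4d. The part of muscle content in the Pde4d difference was not tested.

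Pde4b (ENSMUSG00000028525, mm10 chromosome 4, 102087543 to 102607259, plus strand), the subfamily member best known from inflammatory cells, had 39.3, 35.5 and 29.9 CPM in wild-type and 23.2, 29.2 and 19.8 in knockout, in replicate order. The groups were separated by a narrow gap, between knockout replicate 2 and wild-type replicate 3. The log2 change was −0.53 ± 0.18, and −0.41 without knockout replicate 3. The leukocyte marker sums are given above, and their part in the Pde4b values was not tested.

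Pde4a (ENSMUSG00000032177, mm10 chromosome 9, 21165714 to 21213248, plus strand) went the other way. It had 7.74, 7.84 and 7.08 CPM in wild-type, the tightest group of any of the 10 genes with a coefficient of variation of 5.45%, and 8.47, 12.9 and 8.88 in knockout. Knockout replicate 2 stood above the other libraries. The log2 change was 0.41 ± 0.20, and 0.20 without knockout replicate 2.

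Start-site regions are shown for the 3 genes of subfamily 4 among the 10, because these genes differ in direction. Some promoters of Pde4d and Pde4b are also known to respond to cAMP. Pde4c, the other gene of the subfamily, is not among the 10 and its regions are not shown. The Pde4b and Pde4a windows were picked as those of their RefSeq starts that hold TGACG, and their other starts lack it. The Pde4d window is its sole entry, at the deposited start, and other starts among its 20 GENCODE M21 transcripts were not searched. RefSeq entries on GRCm38.p6 matched 8 of the 10 genes with 22 start sites, and Pde3a and Pde3b had none. Each sequence is the 250 bases before a start site on the plus strand, 5′ to 3′, and capitals mark TGACG, the core of the cAMP response element, or its complement CGTCA, and the E-box CANNTG, the general site of basic helix-loop-helix proteins.
Pde4d, chr13:108653927-108654176: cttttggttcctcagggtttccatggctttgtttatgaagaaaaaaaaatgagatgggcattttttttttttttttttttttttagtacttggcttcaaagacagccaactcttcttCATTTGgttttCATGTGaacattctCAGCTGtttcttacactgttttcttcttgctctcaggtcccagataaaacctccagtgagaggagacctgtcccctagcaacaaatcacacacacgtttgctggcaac
Pde4b, chr4:102421305-102421554: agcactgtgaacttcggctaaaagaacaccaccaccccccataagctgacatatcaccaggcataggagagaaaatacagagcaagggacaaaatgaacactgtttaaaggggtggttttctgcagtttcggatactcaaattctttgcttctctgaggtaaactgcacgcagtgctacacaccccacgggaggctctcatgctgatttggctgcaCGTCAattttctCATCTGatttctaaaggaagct
Pde4a, chr9:21183851-21184100: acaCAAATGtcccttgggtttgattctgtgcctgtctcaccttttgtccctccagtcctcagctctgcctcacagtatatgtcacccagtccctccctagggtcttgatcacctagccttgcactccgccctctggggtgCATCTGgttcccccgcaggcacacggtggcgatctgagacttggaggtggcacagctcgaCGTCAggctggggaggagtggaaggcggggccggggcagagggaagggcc

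The full palindrome TGACGTCA, which contains TGACG, was in 0 of the 22 regions and in 1.55% of 32851 regions of the same length. TGACG, searched on both strands, was in 4 of 22, 1 each for Pde1a, Pde4a, Pde4b and Pde8a, and in 17.8% of all regions. In the sequences shown it begins 34 bases before the Pde4b start and 50 bases before the Pde4a start, and it is not in the Pde4d window. Since the Pde4b and Pde4a windows were picked for holding it, nothing is read from that difference. CANNTG, which reads the same on both strands, was in 19 of 22 and in 66.2% of all regions. The Pde4d window held 3 copies, as did a window of Pde1a, Pde1c, Pde2a, Pde4b and Pde5a, and another Pde1a window held 5. The share of all regions with at least 3 copies was not computed, and nothing is read from these copies. The match is a description of letters only, and the gene-level counts do not say which start sites were in use.

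Pde4d spans 1299.3 kb, and the genes lying inside it were checked because they could add to or take from its counts. The deposited table places 3 genes there, all on its strand: Rps3a3, a processed pseudogene of a ribosomal protein gene, and the microRNA genes Mir582 and Mir1904. In the GENCODE M21 annotation none of the 3 shares an exon base with Pde4d. Rps3a3 (mm10 chromosome 13, 108670603 to 108671397) lies in a 31.7 kb intron, 16.3 kb after one Pde4d exon and 14.6 kb before the next. It had 428, 556 and 528 counts in wild-type and 769, 396 and 371 in knockout, 59.3% of the Pde4d counts in sum. Its log2 change was −0.06 ± 0.21 (edgeR adjusted p = 0.982). Beside Rps3a1, the intact gene of that ribosomal protein, its counts were a near constant share, 1.07% to 1.25% in the 6 libraries. With its counts and those of both microRNA genes added to Pde4d the log2 change of Pde4d became −0.44, which keeps its direction.

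The microRNA genes were at 0 counts apart from 1 count of Mir1904, and mature microRNAs carry no poly(A) tail, so these libraries do not measure them. Their RefSeq mature sequences are shown to identify the transcripts that share the Pde4d span, with the seed (bases 2 to 8) in capitals, and no 2 seeds are identical.
mmu-miR-582-5p: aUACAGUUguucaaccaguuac
mmu-miR-582-3p: uAACCUGUugaacaacugaac
mmu-miR-1904: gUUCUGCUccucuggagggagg

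M21 starts Pde4d 204.2 kb before the deposited start, with 2 more exons. The 2 small RNA genes in that stretch, Gm27572 and Gm28016, are on the other strand, share 0 exon bases with Pde4d and had 0 to 2 counts. Of the other 9 genes, overlaps that share exon bases were limited to the antisense gene Gm28523 at Pde3a, with 1.83% of its counts, and 4930447N08Rik at Pde5a, with 0.23%.

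**Figure D2:**
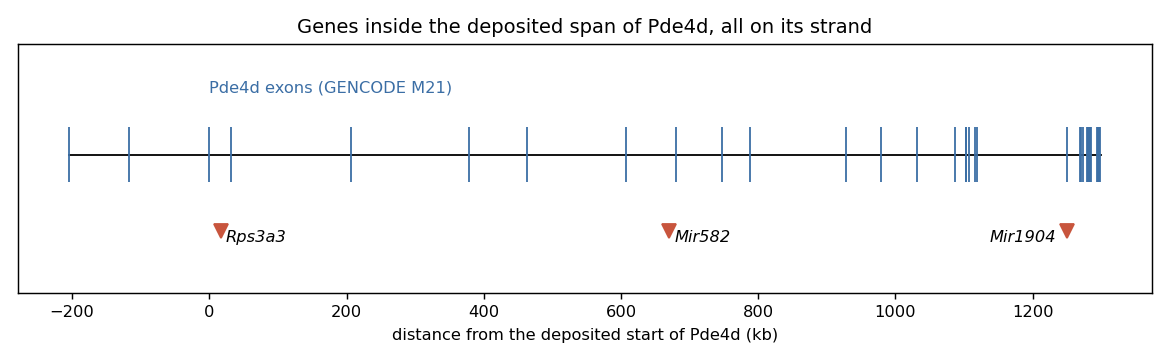
Map of Pde4d: exons in GENCODE M21 (blue strokes, not to width) and the 3 genes of its deposited span (red triangles), by distance in kb from the deposited start. Rps3a3, Mir582 and Mir1904 each lie between exons, and 2 exons lie before the deposited start.

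Pde8a (ENSMUSG00000025584, mm10 chromosome 7, 81213596 to 81334533, plus strand) encodes a cAMP phosphodiesterase of high affinity that common inhibitors do not block. It had 51.3, 66.6 and 59.7 CPM in wild-type and 50.7, 52.2 and 41.1 in knockout. The groups overlapped, wild-type replicate 1 lying below knockout replicate 2, and within same-numbered libraries knockout was lower in 3 of 3 pairs. Of the 6 genes with overlap, Pde8a was the only one with the same direction in all 3 pairs. Pairing by number was inferred from the values, and the share of all genes with 1 direction in all 3 pairs was not computed. Nothing is read from such pair counts, here or for Pde7b and Pde8b below. The log2 change was −0.30 ± 0.15, and between −0.39 and −0.20 with any 1 library left out.

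Family 3 hydrolyses cAMP and is slowed by cGMP, which lets cGMP raise cAMP. Pde3a (ENSMUSG00000041741, mm10 chromosome 6, 141249269 to 141507448, plus strand), the form typical of vascular muscle, heart and oocyte, had 112, 128.5 and 101 CPM in wild-type and 66.8, 89.6 and 53 in knockout. All knockout libraries were lower, and within knockout the order was that of the smooth muscle sums, replicate 2 highest and replicate 3 lowest. The log2 change was −0.71 ± 0.21, −0.55 without knockout replicate 3 and −0.92 without knockout replicate 2. Pde3b (ENSMUSG00000030671, mm10 chromosome 7, 114415281 to 114539251, plus strand), the form known from fat and liver, had 54.9, 57.9 and 47.2 CPM in wild-type and 45, 64.7 and 38 in knockout. Its groups overlapped, knockout replicate 2 being the highest of the 6, and the log2 change of −0.11 ± 0.21 became 0.04 without knockout replicate 3. Adipocyte markers summed to 55.9 to 83.2 CPM in wild-type and 54.4 to 65.5 in knockout.

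Pde5a (ENSMUSG00000053965, mm10 chromosome 3, 122728947 to 122859374, plus strand) encodes the cGMP-specific enzyme that sildenafil inhibits. It had 109, 88.6 and 76.5 CPM in wild-type and 62, 112 and 46.2 in knockout. Knockout held both the highest and the lowest value, in the libraries with the highest and the lowest smooth muscle sum. The log2 change of −0.31 ± 0.32 was −0.75 without knockout replicate 2 and −0.07 without knockout replicate 3, so its size rests on single libraries. Pde2a (ENSMUSG00000110195, mm10 chromosome 7, 101421691 to 101512827, plus strand), the cGMP-stimulated enzyme, had 31.7, 27.8 and 25.4 CPM in wild-type and 24.7, 35.8 and 21.9 in knockout. Knockout replicate 2 was again highest and replicate 3 lowest, as for the endothelial sum. The log2 change was −0.04 ± 0.20 and changed sign when wild-type replicate 1 (0.05), knockout replicate 1 (0.04) or knockout replicate 3 (0.10) was left out.

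Family 1 links calcium to cyclic nucleotide breakdown through calmodulin. Pde1a (ENSMUSG00000059173, mm10 chromosome 2, 79834453 to 80129458, minus strand) had 7.46, 8.04 and 5.83 CPM in wild-type and 6.01, 7.41 and 6.39 in knockout, with knockout values inside the wild-type range and a log2 change of −0.11 ± 0.19 (−0.23 to −0.01 with any 1 library left out). Pde1c (ENSMUSG00000004347, mm10 chromosome 6, 56069804 to 56652487, minus strand), known from dividing vascular muscle cells, was near the detection limit, with 8, 12 and 7 counts in wild-type and 21, 28 and 4 in knockout. Its log2 change of 0.84 ± 0.58 was 0.35 without knockout replicate 2 and 1.23 without knockout replicate 3. Such counts leave the direction unsettled at this depth.

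Ratios between related genes within a library do not depend on how libraries are scaled to each other. They were computed from TPM (counts per exon length, scaled to 1000000 in each library) and chosen after the values were seen. The ratio of Pde3a to Pde3b was 1.46, 1.59 and 1.53 in wild-type replicates 1, 2 and 3 and 1.06, 0.991 and 0.997 in knockout replicates 1, 2 and 3. In wild-type Pde3a was the more abundant mRNA of the pair, while in knockout the levels were close to equal. The ratio of Pde4d to Pde4a was 1.75, 1.70 and 1.63 in wild-type and 0.936, 0.687 and 0.846 in knockout, so Pde4d was above Pde4a in each wild-type library and below it in each knockout library. Where a ratio lies relative to 1 depends on the exon lengths, and the span of Pde4d in M21 differs from the deposited one, so that its TPM is uncertain by a factor common to all libraries. Pde4b to Pde4a was 3.68, 3.28 and 3.06 in wild-type and 1.98, 1.65 and 1.62 in knockout. Pde4d to Pde4b overlapped, at 0.509 ± 0.0315 in wild-type and 0.471 ± 0.0532 in knockout (mean ± SD, n = 3 each). A ratio shows unequal change and does not say which gene changed.

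**Figure D3:**
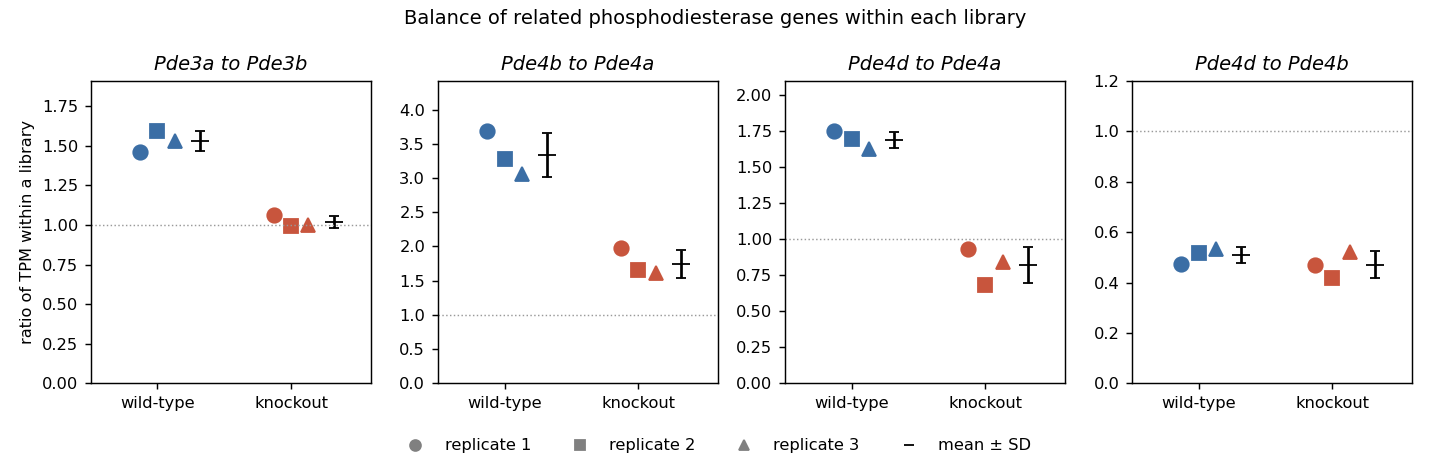
Ratios of TPM of related phosphodiesterase genes within each library (y axis from 0, dotted line at a ratio of 1), with symbols for replicates and black bars for the mean ± SD of 3 libraries. Pde3a to Pde3b, Pde4b to Pde4a and Pde4d to Pde4a are lower in all knockout libraries, and Pde4d to Pde4b overlaps between genotypes.

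Per exon length, Pde8a was the most abundant of the 10 in wild-type, at 45.4 ± 6.45 TPM (mean ± SD, n = 3). Pde5a (28.7 ± 4.47 TPM) and Pde3a (27.7 ± 3.22) followed and overlapped each other. Then came Pde3b (18.1 ± 1.66), Pde2a (14.2 ± 1.29), Pde4b (10.2 ± 1.17) and Pde4d (5.17 ± 0.344), each apart from its neighbours in all 3 wild-type libraries. Pde1a (3.65 ± 0.545) and Pde4a (3.05 ± 0.126) overlapped, and Pde1c was lowest at 0.0271 ± 0.0081 TPM. By mean TPM the same order held in knockout except that Pde4d moved from rank 7 to 9 and Pde4a from 9 to 7, ranks that carry the same uncertainty in exon length, as does the level of Pde1c.

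Of 21 family genes that encode catalytic subunits, the 10 held 77.2%, 76.5% and 72.3% of the summed TPM in wild-type and 73.2%, 74.6% and 61.2% in knockout. The sum itself was 202, 219 and 201 TPM in wild-type and 146, 225 and 161 in knockout, with knockout replicate 2 above wild-type and the other two below. The cAMP-specific families took 43.2% to 50.4% of it in wild-type and 49.3%, 44.4% and 58.0% in knockout. Knockout replicate 3 had the highest share, and Pde7a, a cAMP-specific gene best known from T cells, was at 78.7 CPM there against 40.6 to 51.3 in the other libraries. Pde4d kept to a narrow band of shares, 2.37% to 2.64% in wild-type and 1.68% to 1.97% in knockout.

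**Figure D4:**
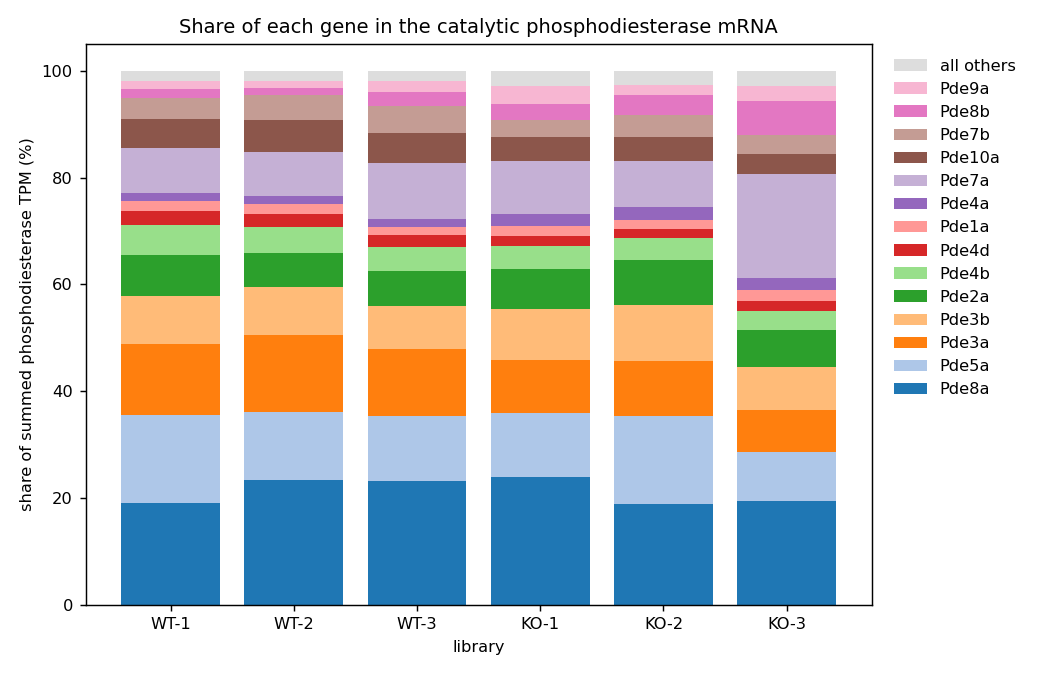
Share of each gene in the summed TPM of 21 catalytic phosphodiesterase genes in each library, with the 10 genes described at the bottom of each bar (Pde1c is in the grey group) and the others above. Pde8a is the widest band in each library, apart from a tie with Pde7a in knockout replicate 3, and Pde3a takes 12.5% to 14.3% in wild-type and 8.0% to 10.3% in knockout.

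The 10 genes described above were selected on their wild-type and knockout values in these libraries. The other 14 family genes are those which that choice left off the list, so their signs, median and counts depend on the same values. Nothing is read from the counts of these 14 genes beside the shares of all genes. Of 10 that could be tested, 6 had positive and 4 negative log2 changes (median 0.16), and edgeR called 0 in either direction at an adjusted p of 0.05, as did DESeq2, and at an unadjusted p under 0.05 there were 3 higher and 2 lower genes, where 5.27% of all genes were higher and 3.29% lower. Pde10a, an enzyme for both nucleotides known from the striatum, had 48.1, 54.3 and 46.1 CPM in the wild-type animals and 30.5, 39.8 and 25.8 in the knockouts (log2 −0.63 ± 0.18, edgeR adjusted p = 0.362). All its knockout libraries were lower, as for Pde3a. Pde7b was 32.3, 41.2 and 40.9 CPM and 21, 35.2 and 22.2, lower in 3 of 3 pairs (log2 −0.55 ± 0.22, edgeR adjusted p = 0.554). Pde8b, the close relative of Pde8a, was 6.34, 5.55 and 9.85 CPM in wild-type and 9, 15 and 19.4 in knockout, where replicate 1 lay below wild-type replicate 3 though knockout was higher in 3 of 3 same-numbered pairs (log2 0.99 ± 0.33, edgeR adjusted p = 0.426).

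Pde4c, the remaining gene of subfamily 4, was higher in all knockout libraries, from 2.21, 2.41 and 2.55 CPM to 3, 4.18 and 4.15 (log2 0.66 ± 0.22, edgeR adjusted p = 0.445). Subfamily 4 thus held 2 genes with each sign of log2 change. Pde9a, which acts on cGMP with high affinity, was also higher in each knockout library (log2 0.52 ± 0.22, edgeR adjusted p = 0.569). Log2 changes were 0.24 ± 0.25 for Pde7a, 0.09 ± 0.24 for Pde1b, −0.03 ± 0.14 for Pde6d, which encodes a prenyl-binding carrier protein and not an enzyme, 0.33 ± 0.40 for Pde6g and −0.35 ± 0.40 for Pde6h. Pde6h is uncertain, since a gene on the other strand that shares exon bases with it had 2260% of its counts. The retinal genes Pde6a, Pde6b and Pde6c and the gene Pde11a had too few counts to be tested.

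**Figure D5:**
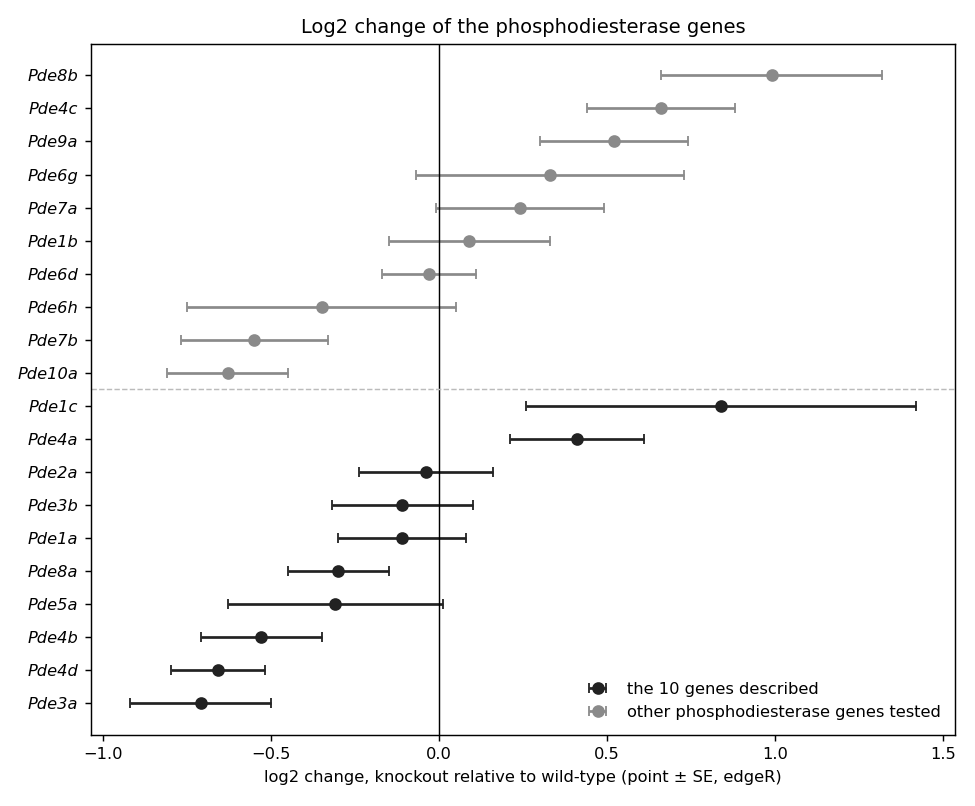
Log2 change in knockout relative to wild-type (point ± SE, edgeR fit) for the 10 genes described (black, below the dashed line) and the 10 other phosphodiesterase genes tested (grey). Pde3a, Pde4d, Pde10a, Pde7b and Pde4b lie at the negative end, from −0.71 to −0.53, and Pde8b and Pde1c at the positive end.

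The genes that make, sense and export cyclic nucleotides were read from 10 lists drawn up by function, with earlier results of these data known. Of 108 tested genes, edgeR called 0 in either direction at an adjusted p of 0.05. At an unadjusted p under 0.05 it had 14 of 108 higher, against 5.27% of all genes, and 5 lower, against 3.29%. DESeq2 called 2, both higher, where it called 1.29% of all genes higher and 0.72% lower. Positive log2 changes numbered 61 and negative ones 47, with a median of 0.07 against 0.01 for all genes. Groups failed to overlap for 12 of the 108 in the higher direction, against 7.22% of all genes, and for 8 in the lower, against 7.01%. The genes named here and below were picked for the smallest p of their list, so nothing is read from their lack of overlap. The 2 DESeq2 calls were Prkg2, a cGMP-dependent protein kinase gene, and Rxfp2, a relaxin family receptor gene. Prkg2 had 1.35, 1.43 and 1.75 CPM in the wild-type animals and 2.78, 6.08 and 4.88 in the knockouts. Its log2 change was 1.6 ± 0.32 (edgeR adjusted p = 0.232, DESeq2 adjusted p = 0.000629). Rxfp2 had 4.29, 2.47 and 5.19 CPM against 6.95, 12.1 and 7.51, a log2 change of 1.15 ± 0.34 (edgeR adjusted p = 0.373, DESeq2 adjusted p = 0.0469). Both genes were higher in each knockout library.

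On the supply side, 4 of 10 adenylyl cyclase genes had positive log2 changes (median −0.02), and the lowest p was that of the bicarbonate-sensitive Adcy10, at 1.05, 1.08 and 0.892 CPM in the wild-type animals and 0.497, 0.523 and 0.463 in the knockouts (log2 −1.02 ± 0.25, edgeR adjusted p = 0.312). Its groups did not overlap. Adcy3 (0.26 ± 0.19) and Adcy8 (−0.61 ± 0.62) overlapped, and Adcy3 is uncertain, since a gene on the other strand with 63.5% of its counts shares exon bases with it. Of 18 genes listed as receptors that raise cAMP, 13 were positive (median 0.32). That list also counts Ramp1 (−0.29 ± 0.17), Ramp2 (0.02 ± 0.17) and Ramp3 (0.17 ± 0.27), which encode receptor accessory proteins. The smallest p after Rxfp2 were those of Adrb1, a beta-adrenergic receptor gene at 0.21 to 0.24 CPM in wild-type (log2 0.92 ± 0.30), and Ptgdr, a prostaglandin D receptor gene (0.82 ± 0.28). The receptor median became −0.02 without knockout replicate 1. Of 7 G protein alpha subunit genes, 5 were positive (median 0.20), with Gnas at 0.66 ± 0.24, Gnao1 at 0.55 ± 0.34 and Gnai1 at 0.20 ± 0.13. That list mixes the stimulating subunits of Gnas and Gnal (−0.19 ± 0.30) with subunits of the inhibitory class. Its sign count and median therefore give no direction of cAMP supply. Gnas counts are uncertain, since 5 annotated genes overlap it. Of these, 2 on the other strand share exon bases with Gnas and had 1.12% of its counts.

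Among cAMP effectors, protein kinase A genes were split, 4 positive and 5 negative of 9 (median −0.04). The inhibitor gene Pkib had a log2 change of 0.77 ± 0.23 and the regulatory subunit gene Prkar1a of −0.39 ± 0.17, both without overlap between groups, and Prkar1b had 0.51 ± 0.30. All 8 tested genes of the other cAMP effectors were positive (median 0.50), with the pacemaker channel genes Hcn4 (1.34 ± 0.39) and Hcn2 (0.61 ± 0.25) and the exchange factor gene Rapgef4 (0.59 ± 0.24) of smallest p, each without overlap. Their wild-type levels were low, at 0.557 to 0.944 CPM for Hcn4, 1.115 to 1.231 for Hcn2 and 2.808 to 3.996 for Rapgef4. The median of the list of other cAMP effectors was between 0.21, without knockout replicate 2, and 0.61, without wild-type replicate 3. Anchors and partners of the enzymes were balanced, 10 positive and 9 negative of 19 (median 0.01). Akap5, with only 14 to 16 counts in wild-type, was at 0.88 ± 0.34, Arrb2, an arrestin gene, at 0.31 ± 0.14 and Akap12 at 0.54 ± 0.35.

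Of 15 CREB family and cAMP-induced genes, 11 were negative (median −0.12). Nr4a2, an orphan nuclear receptor gene (−0.64 ± 0.24), Sik2, a kinase gene (−0.62 ± 0.25), and Atf1, a CREB relative (−0.27 ± 0.12), were lower in each knockout library, and Sik2 shares exon bases with a gene on the other strand that had 220% of its counts. On the cGMP side, 7 of 13 genes listed for raising cGMP were positive (median 0.12). That list also counts Npr3, a clearance receptor gene that does not itself raise cGMP (−0.84 ± 0.44). Guca2b, the uroguanylin gene, was at 0.94 ± 0.40, Nos2 at 1.07 ± 0.54 and Nos1 at 1.28 ± 0.66, all with overlap. Nos2 had only 8 to 19 counts in wild-type and Nos1 6 to 16. Of 7 cGMP effector genes 5 were positive (median 0.01). Besides Prkg2, Rgs2, a G protein regulator gene, had 0.86 ± 0.25 and Mrvi1, a kinase G substrate gene, −0.76 ± 0.26, both without overlap. The efflux pump genes Abcc4 and Abcc5 had 0.71 ± 0.28 and −0.38 ± 0.27. The medians of the adenylyl cyclase, protein kinase A, anchor, cGMP-raising and cGMP effector lists changed sign with single libraries left out, among them knockout replicate 2 or knockout replicate 3.

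Among 10155 other tested genes with a mean of at least 10 CPM, the 5 whose log2 CPM over the 6 libraries was most like that of Pde4d were Neu1, a lysosomal sialidase gene (Pearson r = 0.997), Osgin2 (0.993), Pnpla8, a phospholipase gene (0.992), Irs1, an insulin receptor substrate gene (0.991), and Ranbp9 (0.989). These r rank likeness over 6 libraries of 2 genotypes, and 64 genes had an r over 0.95. The size of the difference was not part of the measure: mean CPM in wild-type and knockout were 214.1 and 136.5 for Neu1, 32.5 and 14.8 for Irs1 and 67.4 and 58.0 for Pnpla8. Ranbp9 is uncertain, since it shares exon bases with a gene on the other strand that had 53.1% of its counts.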

How the data were processed

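For each library the authors deposited a file of raw counts by Ensembl gene. The authors also deposited 1 table of normalized signal values, which are those counts multiplied by a factor of 0.804 to 1.26 for each library. FastQC 0.73, HISAT2 2.2.1, HTSeq 0.9.1, DESeq2 2.11.40.7 and mm10 are named in the submitters' processing notes, without role or order. Libraries were directional, per the labels' protocols; the strand setting of the counting, and the annotation release, were not given in these sources.

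The genotype fit used edgeR 4.0.16 in R 4.3.3 (filterByExpr, TMM, quasi-likelihood test, Benjamini-Hochberg adjustment over 19599 genes, threshold 0.05), with a biological coefficient of variation of 26.3%. CPM use TMM-scaled library sizes, and ± beside a log2 change is its SE. TPM use merged exon lengths of GENCODE M21, which holds 54804 of 55055 identifiers and gives 8 of the 10 genes the deposited span (not Pde1c and Pde4d). Deposited starts count from 0 and are printed from 1. Pde6d, Pde6g and Pde6h encode no catalytic subunit and were left out of the TPM sum.

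The members and all lists were chosen with earlier results of these data known. The text names the 10 genes, other family genes, up to 3 genes of smallest p per list, genes inside Pde4d and the 5 most like it. Replicates differed beyond sampling noise (chi-square over its degrees of freedom 36.3 to 234), and p-values measure the spread between these animals. Same-numbered libraries deviated together (r across genes 0.147, 0.196 and 0.217, against −0.223 to 0.061 for other pairs), so the numbers were taken to pair the libraries, and a blocked fit was run beside the main one. Results were also computed with RLE or upper-quartile scaling, no filter or 1 CPM in 3 libraries, DESeq2 1.42.0, limma 3.58.1 (voom, and log2 of normalized values plus 1), a robust fit, leaving out each library and adding overlapping genes. Of these steps, only the edgeR, DESeq2 and voom fits were tested on simulated counts, drawn with dispersions estimated from these libraries. Nothing is read from that test.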

Additional observations from a re-analysis of the deposited data

How the results depend on the processing

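Counts over all genes moved with the method, and those of the phosphodiesterase genes little. EdgeR called 4 genes lower and 0 higher. Upper-quartile scaling gave 8 lower and 4 higher, no filter 34 and 47, and DESeq2 138 and 248. DESeq2 alone called any of the 10 genes (1 lower, Pde4d) or any other listed gene (2, Prkg2 and Rxfp2). With the replicate block, 5 genes were lower and 2 higher, and the block changed no call among the 10 genes or the lists. With 1 library left out, lower genes numbered 1 (wild-type replicate 1 or 2) to 4, and higher genes 0 to 3 (1 without wild-type replicate 3 or knockout replicate 1, 3 without knockout replicate 3), with 0 of the 10 genes among them. Log2 changes of Pde1a, Pde1c, Pde3a, Pde4a, Pde4b, Pde4d, Pde5a and Pde8a kept their sign under each alternative run. Pde2a changed sign in 3 of 17 settings and Pde3b in 1, all of them omissions of 1 library. Pde1c had too few counts under the filter of 1 CPM in 3 libraries. Depth limits Pde1c, with 4 to 28 counts per library; the other 9 genes had at least 262.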
